A study of Mus musculus with 8 samples.

Results

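The genes described here encode protein kinases and a protein phosphatase that calcium switches on through calmodulin: Camk2a, Camk2b, Camk2d, Camk2g, Camk1, Camk4, Camkk2, Ppp3ca and Ppp3cb. These 9 genes, of 16593 with a probe on the array, were taken by name with all their 18 probes. They were chosen by the measured Camk2b values of these same 8 arrays: Camk2b, known as a kinase of neurons, was lower in the neurons than in the stem cells. The neuron minus stem cell differences of the 9 genes are therefore given as a description, with no p-value.

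The assay was the Illumina MouseRef-8 v2.0 array, on which beads that carry a probe are read for their brightness, and it was run on 2 groups of C57BL/6 mouse cells. The 3 Neuron arrays held differentiated progeny of the stem cells. These were cultured for 4 days in the serum-free medium N2B27, replated in Neurobasal medium that held B27, and sorted for RedStar, a red fluorescent protein under the promoter of Tau. The 5 NSC arrays held RedStar-negative neural stem cells, derived from embryonic stem cells and kept in Euromed-N with N2, FGF2 and EGF. Replicates are not labelled as separate cultures, so errors and p-values cover the spread between these samples alone, and that spread may be technical. The culture medium, the sort and the position on the chip follow the group and cannot be told apart from cell type. The sort is on a neuronal promoter and does not itself tell neuron subtypes apart.

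Calmodulin is a small protein that changes shape when it binds calcium and then activates its target enzymes. Calmodulin kinase II (CaMKII) is a multi-subunit kinase whose subunits come from Camk2a, Camk2b, Camk2d and Camk2g. The alpha and beta subunits dominate in the mature forebrain, where the enzyme is abundant at synapses, and the delta and gamma subunits are found in many tissues. Camkk2 sits upstream in a separate branch and phosphorylates Camk1, Camk4 and the energy sensor AMPK. Calcineurin, whose catalytic subunits come from Ppp3ca, Ppp3cb and Ppp3cc, is the phosphatase of the system and dephosphorylates NFAT transcription factors. Of these, Ppp3cc was not among the genes chosen here.

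Each value is either the deposited average bead signal of a probe, on a linear scale, or its normalised log2 level, which was background-corrected and quantile normalized over the 8 arrays. A probe was called detected on an array when its detection p was below 0.01. The median probe of an array had a signal of 80.6 to 84.3 in neurons and 80.3 to 84.7 in NSCs, and 38.0% to 39.7% of probes were detected in neurons and 36.5% to 38.7% in NSCs. Probes detected on at least 3 arrays entered the fit. Of the 9 genes 7 had such a probe, with 10 probes in all, and 6 of the 18 probes were detected on no array.

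Of the CaMKII subunit genes, Camk2b was lower and Camk2a higher in neurons, and Camk2g overlapped between the groups. Camk2b had signals of 620.6, 658.7 and 619.6 on the neuron arrays, against 3942.7, 3011.6, 3662.2, 3671.0 and 3185.3 on the NSC arrays. Every neuron array was far below every NSC array, and the probe was still detected on all 3 neuron arrays. The normalised log2 level of Camk2b averaged 9.02 ± 0.04 in neurons (SD, n = 3) and 11.77 ± 0.14 in NSCs (SD, n = 5), a log2 difference of -2.75 (SE 0.10, 95% interval -2.98 to -2.52), or 6.73-fold lower. In bulk samples fewer cells of a type and less RNA per cell cannot be told apart. The array holds only 1 Camk2b probe, so no other probe stands beside this reading, and the transcripts that it does or does not cover were not compared.

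Camk2a, the alpha subunit of CaMKII, was read by 3 probes. The brightest had signals of 335.6, 438.0 and 310.1 in neurons, against 84.2, 79.6, 85.5, 98.6 and 95.4 in NSCs. It was detected on all 3 neuron arrays and on 2 of the 5 NSC arrays, so in NSCs the gene lay at the edge of detection. Its log2 level averaged 8.08 ± 0.22 in neurons (SD, n = 3) and 4.98 ± 0.30 in NSCs (SD, n = 5), a difference of 3.11 (SE 0.17, 95% interval 2.72 to 3.49). Without background correction the difference was 1.89, and with the mean of the tested probes it was 2.41.

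The next Camk2a probe had signals of 144.9, 150.2 and 128.5 in neurons, against 71.4, 73.4, 82.7, 83.5 and 72.9 in NSCs. It was detected on every neuron array and on no NSC array. The NSC level is thus only a bound, and Camk2a on this probe was at least 2.08-fold higher in neurons after background correction, computed from the neuron mean against a floor on each NSC array, the dimmest detected probe there or, if brighter, this probe itself. Its measured log2 means were 6.25 in neurons and 4.55 in NSCs, and between the log2 signals as deposited the difference was smaller than this bound, at 0.88. The remaining Camk2a probe was detected on no array, at log2 means of 4.57 in neurons and 4.61 in NSCs, and the table pairs it with another RefSeq transcript than the other two.

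**Figure D1:**
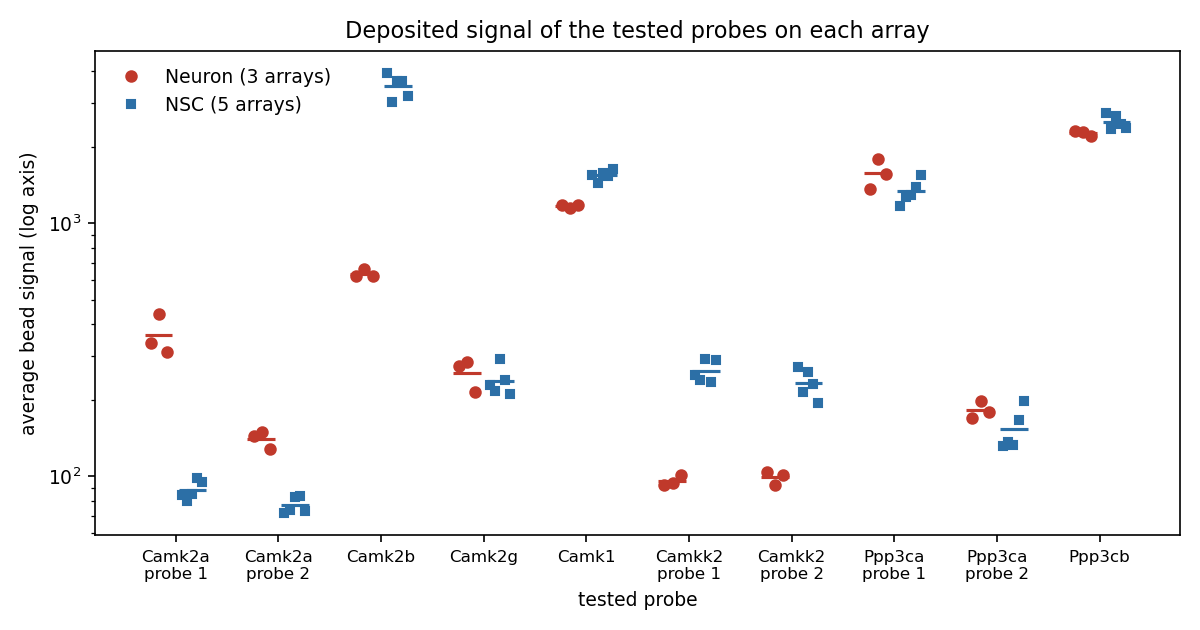
Deposited average bead signal (vertical log axis) of each of the 10 tested probes on the 3 Neuron arrays (red circles) and the 5 NSC arrays (blue squares), with short lines at the group means. Camk2a signals are higher on all neuron arrays than on any NSC array, Camk2b and Camkk2 signals are lower, and the signals of Camk2g and Ppp3ca overlap.

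Camk2g, the gamma subunit, overlapped between the groups on its brighter probe. The signals were 272.3, 283.4 and 215.2 in neurons, against 228.9, 217.2, 291.4, 239.6 and 212.2 in NSCs. The log2 difference was -0.09 (SE 0.14, 95% interval -0.40 to 0.22). The interval thus leaves room for a fall or a rise smaller than these bounds, and the sign turned with median scaling of the arrays (0.137) and without Neuron 3 (0.033). The other Camk2g probe, paired with another transcript, was detected on 1 neuron array and 1 NSC array.

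Camk2d, the delta subunit, was at the background level. Of its 4 probes, 1 was detected on 1 neuron array and the other 3 on no array, and their log2 means lay between 4.32 and 4.65 in neurons and between 4.38 and 4.56 in NSCs. On 1 of the undetected probes every neuron array was above every NSC array, at means of 4.59 in neurons and 4.47 in NSCs, a gap with no detected signal under it. These probes give no level for Camk2d, and low signal was not told apart here from probes that miss the transcripts made in these cells.

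Among the upstream and parallel kinases, Camkk2 was much lower in neurons. Its brighter probe had signals of 92.3, 94.0 and 101.4 in neurons, against 251.7, 241.5, 292.5, 235.6 and 287.4 in NSCs. The other probe had 104.0, 92.1 and 101.5 in neurons, against 271.8, 215.4, 259.2, 232.2 and 195.3 in NSCs. Both probes were detected on all 5 NSC arrays and sat close to the background in neurons, with 1 and 2 of the 3 neuron arrays detected. The log2 differences were -2.55 (SE 0.13) and -2.22 (SE 0.16), and the 2 probes have overlapping intervals of -2.84 to -2.27 and -2.59 to -1.86. Without background correction the brighter probe's difference was -1.53.

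Camk1, a kinase that Camkk2 activates, was lower by a smaller step. Its signals were 1183.6, 1153.9 and 1181.3 in neurons, against 1552.4, 1444.7, 1577.3, 1535.2 and 1649.3 in NSCs. The groups did not overlap. The log2 levels averaged 9.99 ± 0.09 in neurons (SD, n = 3) and 10.61 ± 0.06 in NSCs (SD, n = 5), a difference of -0.63 (SE 0.09). Camk4, the largely nuclear kinase that phosphorylates CREB, has 1 probe, which was detected on no array, at a log2 mean of 4.47 in neurons and 4.46 in NSCs.

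Of the calcineurin catalytic subunit genes, Ppp3ca and Ppp3cb differed little, while Ppp3cc, given below, was higher in neurons. Ppp3ca on its brightest probe had signals of 1372.7, 1800.5 and 1562.8 in neurons, against 1173.1, 1272.4, 1298.3, 1396.5 and 1552.2 in NSCs. The groups overlapped, with a log2 difference of 0.05 (95% interval -0.23 to 0.33; -0.03 without Neuron 2), and a dimmer probe gave 0.22 (95% interval -0.22 to 0.66). The third Ppp3ca probe was detected on no array.

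Ppp3cb had signals of 2312.5, 2301.1 and 2218.8 in neurons, against 2735.3, 2367.2, 2648.8, 2474.8 and 2390.7 in NSCs. All neuron arrays were below all NSC arrays, but by little, and the log2 difference was -0.28 (SE 0.09, 95% interval -0.48 to -0.09). The difference was -0.26 without Neuron 2 and -0.16 with median scaling.

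**Figure D2:**
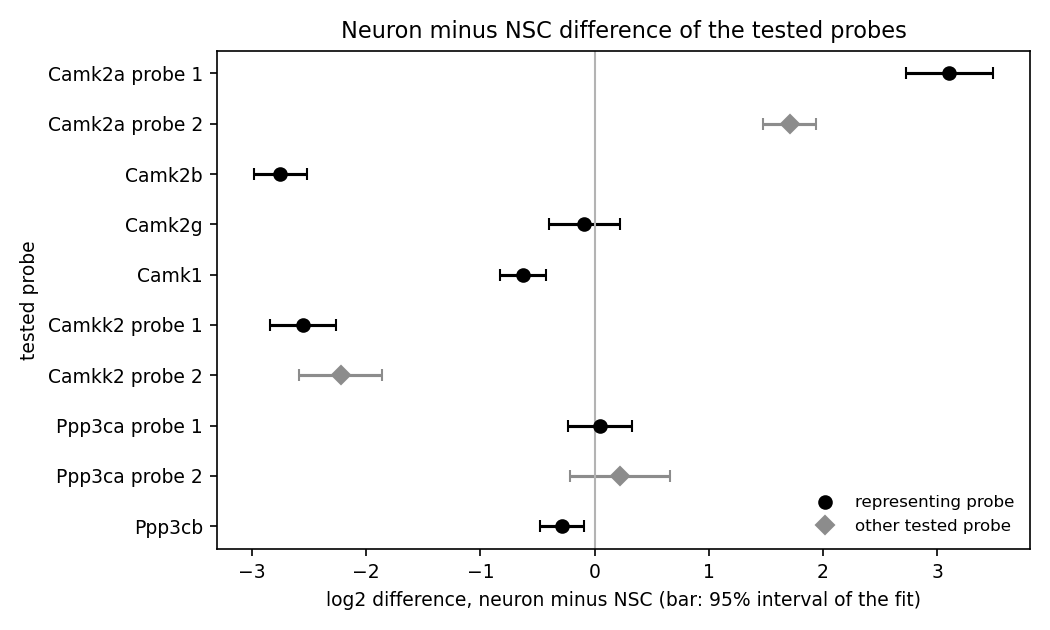
Log2 difference, neuron minus NSC, of the 10 tested probes, with bars for the 95% interval of the fit; black circles mark the probe that represents a gene and grey diamonds the other tested probes. The probes of Camk2a lie right of 0, those of Camk2b, Camk1, Camkk2 and Ppp3cb left of it, and the intervals of Camk2g and Ppp3ca include 0.

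In the limma fit over 7407 genes, 5 of the 7 tested genes passed an adjusted p of 0.05, 1 higher (Camk2a) and 4 lower (Camk2b, Camk1, Camkk2 and Ppp3cb) in neurons, where 64.6% of all tested genes passed. Without Neuron 2 or with median scaling they were 4, as Ppp3cb did not pass. In each direction 35.4% of all genes were called higher and 29.2% lower. The groups did not overlap for the same number, 5 of 7, against 61.1% of all genes. The contrast is the one that chose the genes, so nothing is read from these counts. The median log2 difference of the 7 genes was -0.28, against 0.06 over all tested genes. Median scaling moved the median of all genes to 0.23. Relative to that median Camk2b stood at -2.82 and Ppp3cb at -0.39, against -2.81 and -0.35 with quantile normalization.

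**Figure D3:**
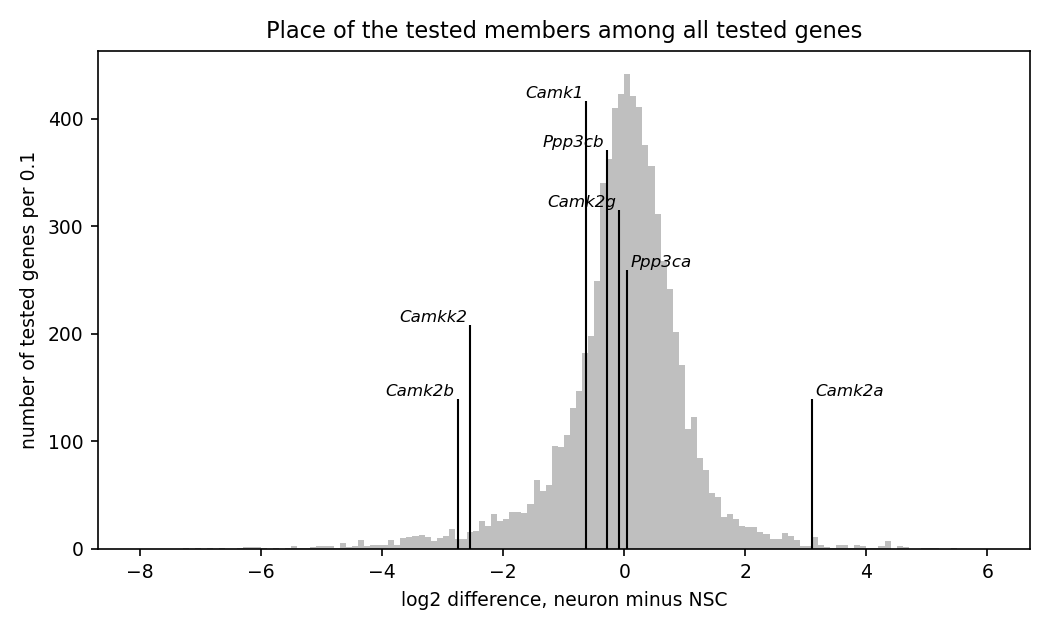
Number of tested genes (vertical axis) by log2 difference, neuron minus NSC, for all 7407 tested genes, with a line at the value of each of the 7 tested genes described here; line heights have no meaning. Camk2b and Camkk2 lie in the left tail, Camk2a in the right tail and the other four near the centre.

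As places in that distribution, 187 genes, or 2.52%, had a difference as low as that of Camk2b or lower. For Camkk2 they were 204 genes, or 2.75%, and 55 genes, or 0.743%, had a difference as high as that of Camk2a or higher.

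The genes whose profile over the 8 arrays lay nearest to that of Camk2b, by the root mean square distance of log2 levels centred on each gene's mean, were Mxra8, Pon2, Rab29, H2ac20 and Hlx, at distances of 0.111 to 0.134 among 5812 genes detected on all arrays. Their log2 differences were -2.88, -2.80, -2.84, -2.90 and -2.91. Among the same genes, the nearest to Camk2a were Cdk5r1, Slc2a13, Kif21a, Syngr3 and Rufy3, at distances of 0.232 to 0.306. Their differences were 3.37, 3.16, 3.05, 2.75 and 2.77. Camk2a itself was not detected on every NSC array. Genes likewise undetected on some array, such as Ryr3, were left out of this search, and nearer ones among them were not looked for. Cdk5r1 encodes the p35 activator of the neuronal kinase Cdk5, Syngr3 is a synaptic vesicle protein and Kif21a is a kinesin motor. With 2 groups of arrays these distances mostly record a group difference of like size.

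Camk2b and Camkk2 had the lowest neuron minus NSC differences of the 7 genes, and the 250 bases before their RefSeq start sites are shown for that reason, on GRCm38.p6 and in the direction of transcription, with each GC box (GGGCGG on either strand, overlaps included) in capitals. The Camk2b stretch is chr11:6065749-6065998 on the minus strand and the Camkk2 stretch is chr5:122779411-122779660 on the minus strand.
Camk2b: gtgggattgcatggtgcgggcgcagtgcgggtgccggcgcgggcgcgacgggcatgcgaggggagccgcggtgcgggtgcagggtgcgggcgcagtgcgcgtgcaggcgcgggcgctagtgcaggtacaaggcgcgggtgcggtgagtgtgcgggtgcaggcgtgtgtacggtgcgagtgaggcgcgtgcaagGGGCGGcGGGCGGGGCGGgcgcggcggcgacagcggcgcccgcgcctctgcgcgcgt
Camkk2: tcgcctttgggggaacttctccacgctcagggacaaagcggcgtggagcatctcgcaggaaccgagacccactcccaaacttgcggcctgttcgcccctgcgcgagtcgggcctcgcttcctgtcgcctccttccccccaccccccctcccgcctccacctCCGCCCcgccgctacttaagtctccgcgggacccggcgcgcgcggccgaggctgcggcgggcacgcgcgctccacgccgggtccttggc

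The Camk2b stretch held 44 CpG dinucleotides and the Camkk2 stretch 32, where the median of 32851 promoters in the RefSeq table was 6, and 99.5% and 95.4% of promoters had fewer. Neither held the motif CCAAT, the core promoter motif TATAAA, the E-box CANNTG or TGACG, a piece of the CREB site, all searched on both strands. A GC box was found 3 times before Camk2b and 1 time before Camkk2, and 32.7% of all promoters hold at least 1. The shares of promoters with the other motifs were 33.8% for CCAAT, 12.4% for TATAAA, 66.2% for CANNTG and 17.8% for TGACG. High CpG content was not shared by every lower gene. Ppp3cb, with 10 CpGs and 2 GC boxes, and Camk1, with 11 and 0, were closer to the median promoter, and Camk2d, at background on the array, had 23 and 3. No mark or factor was measured on these stretches. The promoters of Camk2a, the gene called higher, and of Camk4, Camk2g and Ppp3ca were not examined. CpG content can therefore not be set against the direction of the difference.

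Other genes of calcium and calmodulin signalling were taken whole from lists by role. Of 106 genes listed, 92 had a probe and 53 were tested. In neurons 26 rose, 16 fell and 11 did not pass (limma, adjusted p below 0.05), so that 79.2% passed, beside 64.6% of all tested genes. Their median log2 difference was 0.34, against 0.06 over all genes. Of the called genes 3 higher and 3 lower ones were detected in 1 group alone, which left the filter no room to pass them the other way. Without these 23 rose and 13 fell of 47. Basp1 and Dapk1, each detected on 1 NSC array, also needed the neuron arrays to pass and stay among the 23. Beside the counts of each list below stand the shares over all tested genes, 35.4% higher and 29.2% lower, and whether a list differs from them was not tested.

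Calmodulin itself did not rise. Of its genes Calm2 and Calm3 were tested. Calm3 had signals of 3479.2, 4459.7 and 3293.6 in neurons, against 4110.9, 4296.1, 5222.5, 5149.5 and 4794.9 in NSCs, and fell, at -0.40 on the log2 scale (SE 0.12, limma adjusted p = 0.0129). The Calm3 call was lost without Neuron 1 (adjusted p = 0.0514) or Neuron 3 (limma adjusted p = 0.0632). Calm2 had a difference of -0.33 (SE 0.27, limma adjusted p = 0.304). Of the calmodulin-binding proteins listed as buffers, all 4 tested of 6 with a probe rose, led by Basp1 (1.72, or 0.87 without background correction). Gap43, a growth cone protein detected on no NSC array, was at least 1.09-fold higher, a bound below the differences of Marcksl1 (0.47) and Marcks (0.46). Only the neuron arrays brought Gap43 past the filter, which left no room to see a fall. Basp1 was detected on 1 NSC array and also needed the neuron arrays to pass. The count of this list as all higher has that limit. The list median was 0.67, or 0.46 with Gap43 at its bound, and Nrgn and Pcp4, buffers of mature neurons, were detected on no array.

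Of 7 tested calcium entry and release genes 3 were higher, 3 lower and 1 not past the threshold. Ryr3, a ryanodine receptor that releases calcium from internal stores, had signals of 230.2, 342.7 and 243.7 in neurons, against 71.7, 75.6, 70.4, 79.7 and 70.7 in NSCs. It was detected on no NSC array and was at least 5.21-fold higher after background correction, but 1.76 on the log2 scale without it, which is less, and here too the filter left no room to see a fall. The T-type calcium channel gene Cacna1h rose by 1.13 (limma adjusted p = 1.91e-05). The store-operated channel gene Orai1 fell, at -1.85 (SE 0.11, limma adjusted p = 5.87e-08), and its relative Orai3 fell, at -0.92 (-0.61 without background correction).

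The other calmodulin-regulated kinases and CaMKII inhibitors counted 3 higher, 2 lower and 2 not past the threshold of 7 tested. Camk2n1, a small protein that inhibits CaMKII, had signals of 1585.0, 1802.1 and 1543.0 in neurons, against 430.3, 378.9, 457.1, 449.0 and 337.2 in NSCs. All neuron arrays were above all NSC arrays, and the gene rose by 1.97 (SE 0.13, limma adjusted p = 1.47e-07). Dapk1, the death-associated kinase, rose by 2.24, or 1.25 without background correction. It was detected on 1 NSC array and needed the neuron arrays to pass the filter. Camk1g, another Camk1 family gene, was detected on no neuron array, so that a rise could not have passed, and was at least 1.22-fold lower.

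The remaining genes around calcineurin counted 4 higher and 2 lower of 6 tested. Ppp3cc, the gene of another catalytic subunit, had signals of 265.8, 225.8 and 229.2 in neurons, against 137.8, 128.0, 139.7, 135.6 and 127.3 in NSCs, with no overlap. It rose by 1.05 on the log2 scale (SE 0.12, limma adjusted p = 1.38e-05), or 0.70 without background correction. Rcan1, an inhibitor of calcineurin and a known NFAT target, rose by 0.86 (SE 0.11, limma adjusted p = 4.30e-05). Fkbp1a, the immunophilin through which FK506 blocks calcineurin, fell, at -0.57. Of the list of calcineurin and NFAT targets 2 rose, 5 fell and 1 did not pass of 8 tested. The median was -0.62, or -0.60 with genes seen in 1 group at their bound. These 8 are genes of NFAT factors themselves and of other proteins downstream of calcineurin, while Rcan1 is counted in the list before. Their levels do not measure NFAT activity, which was not tested. Mef2c, a transcription factor that calcineurin can activate, fell, at -1.66 (SE 0.12, limma adjusted p = 5.42e-07), or -1.16 with the mean of its tested probes. Ppp1r1b, the phosphatase inhibitor DARPP-32, was detected in NSCs alone. It was at least 1.63-fold lower after background correction, but lower by less without it (-0.51 on the log2 scale). The CREB coactivator gene Crtc1 rose by 0.86, or 0.47 without background correction.

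Of 9 tested genes whose proteins are listed as targets of the calmodulin kinases, 6 were higher, 0 lower and 3 not past the threshold. Thus 66.7% passed, near the 64.6% of all genes. Syn1, a synaptic vesicle protein phosphorylated by CaMKII, rose by 2.11 (SE 0.18, limma adjusted p = 1.91e-06), and Srf rose by 1.03. Of 4 other calmodulin-regulated enzymes and pumps 1 rose, 2 fell and 1 did not pass. The adenylyl cyclase gene Adcy8, detected in neurons alone, was at least 3.21-fold higher after background correction, but by less without it (1.11 on the log2 scale). The phosphodiesterase gene Pde1b fell, at -1.48, and the calcium pump gene Atp2b1 fell, at -0.92 (-0.51 without background correction). The groups overlapped for Atp2b1, with signals of 134.8 on Neuron 2 and 117.8 on NSC 1. Of 6 tested activity-regulated genes 3 rose, 1 fell and 2 did not pass. Bdnf, a neurotrophin, rose by 2.05 (SE 0.10, limma adjusted p = 1.46e-08) and Egr1 by 0.78, while Fos fell, at -0.64, and Arc, Npas4, Fosb and Nr4a1 were detected on no array.

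**Figure D4:**
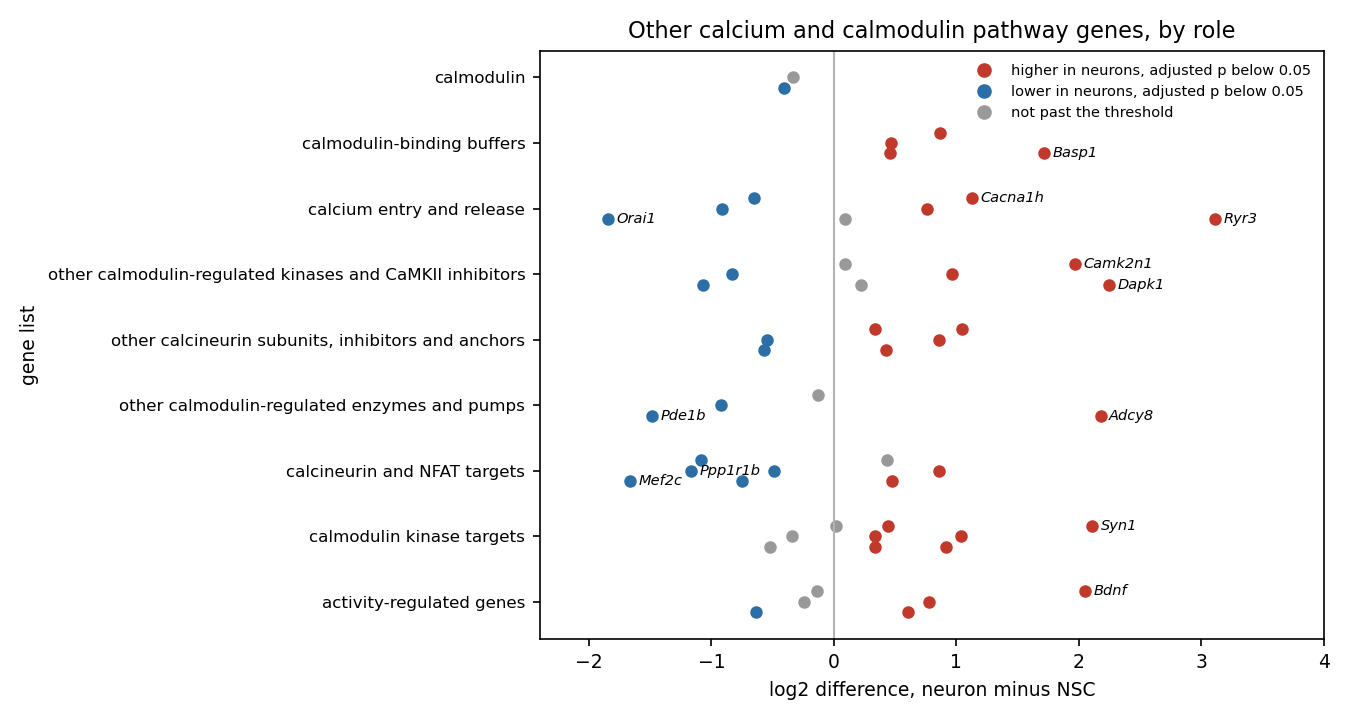
Log2 difference, neuron minus NSC, of the 53 other tested pathway genes, in a row for each list (points are spread within a row so that they do not hide each other); red points rose and blue points fell at a limma adjusted p below 0.05, and grey points did not pass. The lists of calmodulin-binding buffers and calmodulin kinase targets hold no blue point, and the other lists with over 2 genes hold both colours.

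Marker lists of cell types also differed between the groups. Of 10 neuron markers 4 were tested and all 4 were higher, 3 of them detected in neurons alone. Their summed linear level was 4580 to 6459 in neurons and 1896 to 2937 in NSCs. Most of that sum was Map2, at log2 means of 11.93 in neurons and 11.12 in NSCs. Dcx, Mapt and Rbfox3 were at least 13.7-, 17.1- and 13.0-fold higher after background correction. Tubb3, Stmn2, Snap25, Elavl3, Elavl4 and Syt1 were detected on no array of either group. All 5 tested dividing cell markers were lower, 3 of them detected in NSCs alone, summing to 306 to 385 in neurons and 5573 to 6276 in NSCs. Of 8 tested NSC markers 2 were higher (Egfr and Sox2) and 5 lower (7009 to 7511 in neurons and 8015 to 8733 in NSCs). Of 6 tested astrocyte markers 5 were lower (4417 to 5162 in neurons and 18189 to 19740 in NSCs). Of these 6 markers 2 were detected in NSCs alone, and Gfap, Aqp4 and Glul were on no array. Of 5 tested oligodendrocyte lineage markers 4 were higher (15232 to 16516 in neurons and 9701 to 12902 in NSCs). Of these 4 markers 2 were detected in neurons alone, and Mbp, Mag and Mog were on no array. Of 3 tested pluripotency markers 2 were lower (92.0 to 107 in neurons and 170 to 190 in NSCs). Of these 3 markers 2 were detected in NSCs alone, and Pou5f1, Nanog, Zfp42 and Tdgf1 were on no array. For a marker detected in 1 group alone, the filter left no room to pass it the other way. A summed level weighs the brightest genes most, such as Egfr and Olig1, and does not give the size of the other genes' changes. The part of these cell types in the levels of Camk2a, Camk2b and Camkk2 was not tested.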

How the data were processed

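Per the file headers, the deposited signal is an average intensity over a probe's beads, on a linear scale, for 25697 probes. A detection score, deposited beside it, is a fraction from 0 to 1, and 1 minus it was taken as the detection p. The authors' deposited log2 values matched log2 signals that were quantile normalized here, to within 5.00e-09, and limma is named in the submitters' processing notes.

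Signals were background-corrected from the detection p with an offset of 16, quantile normalized and put on the log2 scale (neqc steps of limma 3.58.1, R 4.3.3). Background correction enlarges the differences of dim probes, an offset shrinks them, and each value is relative to the other probes. Tested probes, 10499 in all, were those detected (p below 0.01) on at least 3 arrays, or 2 when a neuron array was left out, and a gene was represented by its brightest tested probe. Symbols came from the platform table (23978 probes with 1 gene, 1719 with none). lmFit and eBayes were fitted with group as the only term, with Benjamini-Hochberg adjustment over all tested probes. The number of arrays limits the precision. Same-numbered samples did not deviate together (correlations -0.02, 0.01 and 0.01), so the numbers were not taken as pairs. The procedure was tested on simulated signals, with NSC noise in both groups and changes only in probes detected on every NSC array. That test does not cover probes at background in NSCs, or as large a share of changed genes as here.

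The genes and lists were chosen with earlier results of these data known. Named were all probes of the 9 genes and both tested calmodulin genes. Each other list gave the 2 called genes that changed most in the majority direction and the 1 changing most the other way. The calcium entry and release list, with as many higher as lower, gave 2 in each direction. Also named were the 5 genes nearest in profile to Camk2b and to Camk2a, among genes detected on all arrays. Genes named for being undetected, and the cell type markers named, were chosen after their values were seen. Marcks and Marcksl1 were named only to stand beside the bound of Gap43. Alternatives were no background correction, an offset of 50, median scaling, cyclic loess, the authors' values, other filters, the mean of probes, a trended robust variance, the replicate block and leaving out each array.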

Additional observations from a re-analysis of the deposited data

Results flagged for a closer look

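The 35 sets of NSC values checked were those of 10 kinase and calcineurin probes and 25 named pathway genes. In 2 of them NSC 1 stood apart from the other 4 arrays by more than Dixon's 95% critical value of 0.71. Chance flags about 5% of such sets. For Ppp3cb the gap between NSC 1 (11.42) and the nearest array (11.30) was 0.767 of the range, and without NSC 1 the neuron minus NSC difference was -0.25, against -0.28. For Orai1 NSC 1 read 10.05 and the nearest array 9.81, a gap of 0.798 of the range.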

How the results depend on the processing

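With detection required on all 8 arrays, 3 of the kinase and calcineurin genes passed the threshold, 0 of them higher in neurons, since Camk2a and Camkk2 left the test. In the other alternatives 4 or 5 passed, and Ppp3cb was the gene lost each time: without Neuron 2, with median scaling and with the replicate block, in which NSC 4 and NSC 5 have no partner. The replicate block gave 4 of these genes, 1 higher and 3 lower, and 38 pathway genes, 23 higher and 15 lower, against 42 (26 and 16) without it. Leaving out each array gave 39 to 44 pathway genes, and 34 were left with detection on all 8 arrays. No kinase, calcineurin or named pathway gene with a call turned its direction under any alternative run. Calm3 was not past the threshold under the replicate block (-0.32, limma adjusted p = 0.0868), as well as without Neuron 1 or Neuron 3. Camk2b ranged from -2.78 to -2.58, Camk2a from 1.89 to 3.32 and Camkk2 from -2.74 to -1.53, the smallest sizes of Camk2a and Camkk2 with no background correction or the authors' values. Of all called genes 54.8% were higher in neurons, 66.1% with median scaling and 49.8% with cyclic loess. Signal over background limits Camk2a in NSCs and Camkk2 in neurons.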
